A study of Mus musculus with 9 samples.

Results

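The collagen chains are the genes whose symbol in the deposited mouse table has the form of Col, a type number, the letter a and a chain number. This rule found 44 chains among 55401 genes, of which 11 are fibrillar chains, 8 are basement membrane chains and 25 belong to other types. RNA of colonic tissue from wild-type mice was sequenced in 9 libraries. The berberine group, the high-fat diet group and the chow group had 3 libraries each. The titles mark the high-fat diet and chow libraries with AOM and DSS, given only as abbreviations; in mouse work they usually mean azoxymethane with dextran sulfate sodium, used to induce tumours in an inflamed colon. The labels of the berberine libraries name the plant alkaloid berberine alone, so their diet and whether they had AOM/DSS are not known from the sources used here, nor are strain, age, sex or duration. Nothing says that the 9 libraries came from 9 animals, so p-values measure the spread between these libraries, which may be technical.

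Collagens are secreted proteins built of 3 chains wound into a triple helix. Fibrillar types (I, III, V) form the fibrils of connective tissue, type IV forms the sheet-like network of basement membranes, and the remaining types decorate fibrils, anchor cells or form filaments. In the colon wall, most collagen RNA comes from fibroblasts and smooth muscle, while epithelial cells and blood vessels add to the basement membrane types.

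Library totals ran from 51961764 to 69007117 estimated counts. Levels are given in FPKM, fragment numbers scaled to transcript length and library size, so that chains can be compared per length, and folds come from the counts. A chain is said to have risen or fallen where edgeR's quasi-likelihood test gave an adjusted p under 0.05 over all 14506 genes tested, which were those averaging 1 FPKM or more across libraries. A few libraries differed from the rest in markers of other cell types. The summed level of 10 striated muscle markers was 591 FPKM in chow replicate 3 and at most 21.6 FPKM elsewhere. That of 10 squamous epithelium markers was 161 FPKM in chow replicate 1, against 8.10 FPKM in chow replicate 3 and 52.4 to 107 FPKM in high-fat diet libraries. In chow replicate 2 it was 57.6 FPKM, of which Sprr1a alone made 56.4 FPKM. That of 8 adipocyte markers was 371 and 276 FPKM in berberine replicates 1 and 2, against 7.68 FPKM in berberine replicate 3. The 10 general epithelial markers, none of them at 0 in any library, were high throughout, with sums between 4256 and 5632 FPKM.

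Of the 44 chains, 26 passed the filter on low values: 8 fibrillar, 5 basement membrane and 13 of other types. Of these, 8 chains averaged at least 10 FPKM and 18 averaged between 1 and 10 FPKM. Among the 18 chains not tested, 8 lay between 0.1 and 1 FPKM and 10 below 0.1 FPKM. Col9a3 and Col17a1 passed only through the high-fat diet libraries, with means of 0.255 and 0.561 FPKM over the other 6 libraries. Col3a1, of the type III fibrils of elastic and reticular tissue, was the highest chain, with a mean of 42.4 FPKM, followed by Col6a1 with 32.2, Col4a1 and Col4a2 with 25.4 each, Col1a1 with 24.9, Col1a2 with 15.8 and Col6a2 with 15.0 FPKM. The ranges of neighbours in this order overlapped over the 9 libraries. Together these 7 chains held 73.0 to 75.5% of all collagen FPKM in berberine libraries, 60.7 to 71.5% in high-fat diet libraries and 68.9 to 73.3% in chow libraries. All chains summed held 0.0503 to 0.0845% of the total FPKM in berberine libraries, 0.0467 to 0.0944% in high-fat diet libraries and 0.0501 to 0.0746% in chow libraries, so the groups overlapped in the total.

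**Figure D1:**
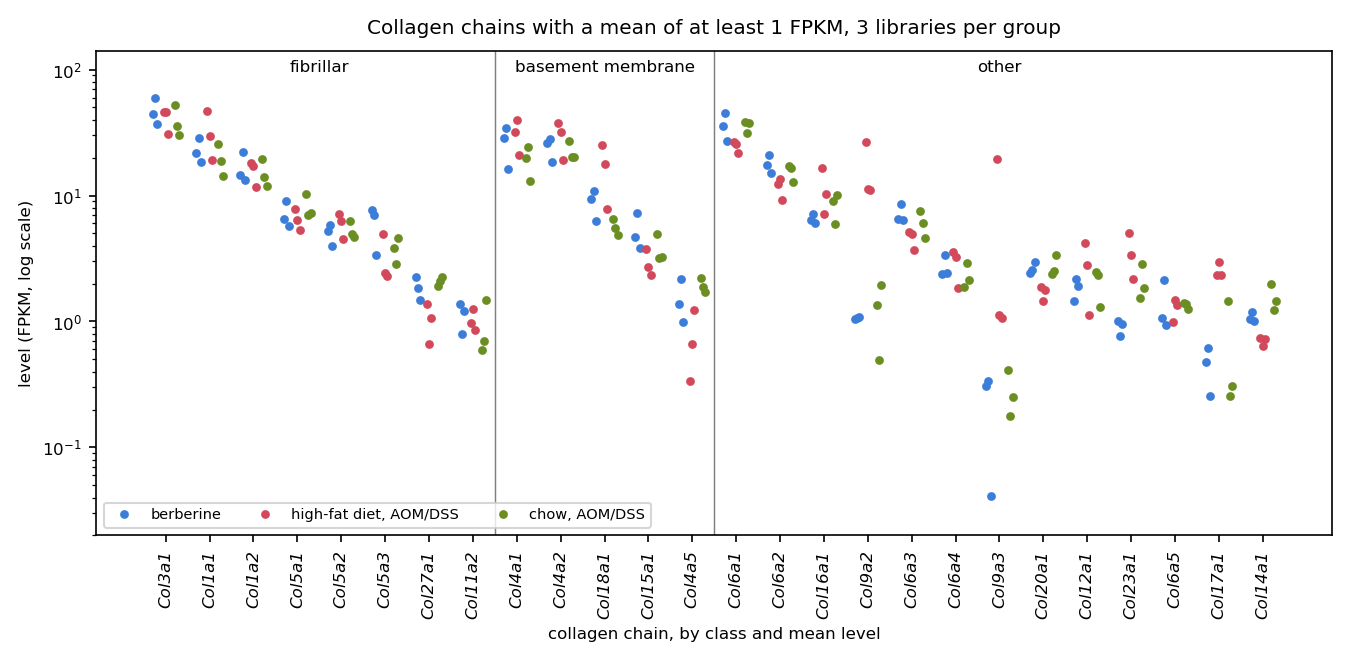
Level of each of the 26 tested collagen chains (FPKM, log scale) in the 3 berberine (blue), 3 high-fat diet (red) and 3 chow (green) libraries, by class and mean level. Each point is 1 library; the red points of Col9a2 and Col9a3 lie above all others of those chains.

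With high-fat diet against chow, 3 of the 26 tested chains rose (Col9a2, Col9a3 and Col18a1) and 5 fell (Col6a1, Col14a1, Col20a1, Col27a1 and Col4a5). The 8 changed chains were 30.8% of those tested, beside 31.8% of all tested genes (15.2% higher, 16.6% lower), so the share among collagens was near the background. The groups did not overlap for 11 of the 26 chains, beside 45.7% of all tested genes. Without Col9a3 and Col17a1, which reached the filter only through the high-fat diet libraries, 7 of 24 chains changed (29.2%), beside 30.7% of the 14004 genes that reach 1 FPKM outside that group. Over all 26 tested chains the median log2 fold change was -0.02, beside 0.00 over all 14506 tested genes. By class, 1 fibrillar chain fell, 1 basement membrane chain rose and 1 fell, and 2 chains of other types rose and 3 fell. The count was 5 without high-fat diet replicate 1. In whole tissue, fewer cells of a type and less RNA per cell cannot be told apart. Scaling by library totals shifted the median of all genes by 0.13 on the log2 scale, and 59.9% of all calls were then upward in place of 47.7%.

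With berberine against high-fat diet, 7 of the 26 chains rose (Col6a1, Col6a2, Col6a3, Col14a1, Col15a1, Col20a1 and Col27a1) and 4 fell (Col9a2, Col9a3, Col17a1 and Col23a1). That is 42.3% of the tested chains beside 30.7% of all tested genes (15.8% higher, 14.9% lower), with a median log2 fold change of 0.20 for the chains and -0.01 for all genes. The groups did not overlap for 11 chains, beside 50.4% of all tested genes. The filter favoured the falls of Col9a3 and Col17a1, and without them 9 of 24 chains changed (37.5%, 7 higher and 2 lower), beside 29.5% of the 14004 genes. By class, the 11 calls held 1 of 8 fibrillar chains (12.5%) and 1 of 5 basement membrane chains (20%), both higher. They also held 9 of 13 chains of other types (69.2%, 5 higher and 4 lower), Col9a3 and Col17a1 among them. The count rested on single libraries: it was 3 without berberine replicate 2, 6 without berberine replicate 1, 7 without high-fat diet replicate 2 and 6 without high-fat diet replicate 3. Under library totals the median of all genes moved to -0.12 and 41% of all calls were upward in place of 51.4%.

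With berberine against chow, 0 of the 26 chains changed by edgeR, beside 0.0483% of all tested genes (7 genes, 0.0414% higher and 0.00689% lower). The groups did not overlap for 3 chains, beside 18.1% of all tested genes. At an unadjusted edgeR p under 0.05 there were 2 chains, Col14a1 and Col23a1. The share of all tested genes at that threshold was not counted, so the 2 chains are no result about collagens. DESeq2 called 1 chain, Col23a1, and 384 genes in all. The comparisons that share the high-fat diet libraries can be set side by side but are not independent: Col9a2 and Col9a3 were higher in high-fat diet than in chow and lower in berberine than in high-fat diet, and Col6a1, Col14a1, Col20a1 and Col27a1 were the other way in both. No chain of types I, III or V changed in either comparison, nor did Col4a1 or Col4a2.

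**Figure D2:**
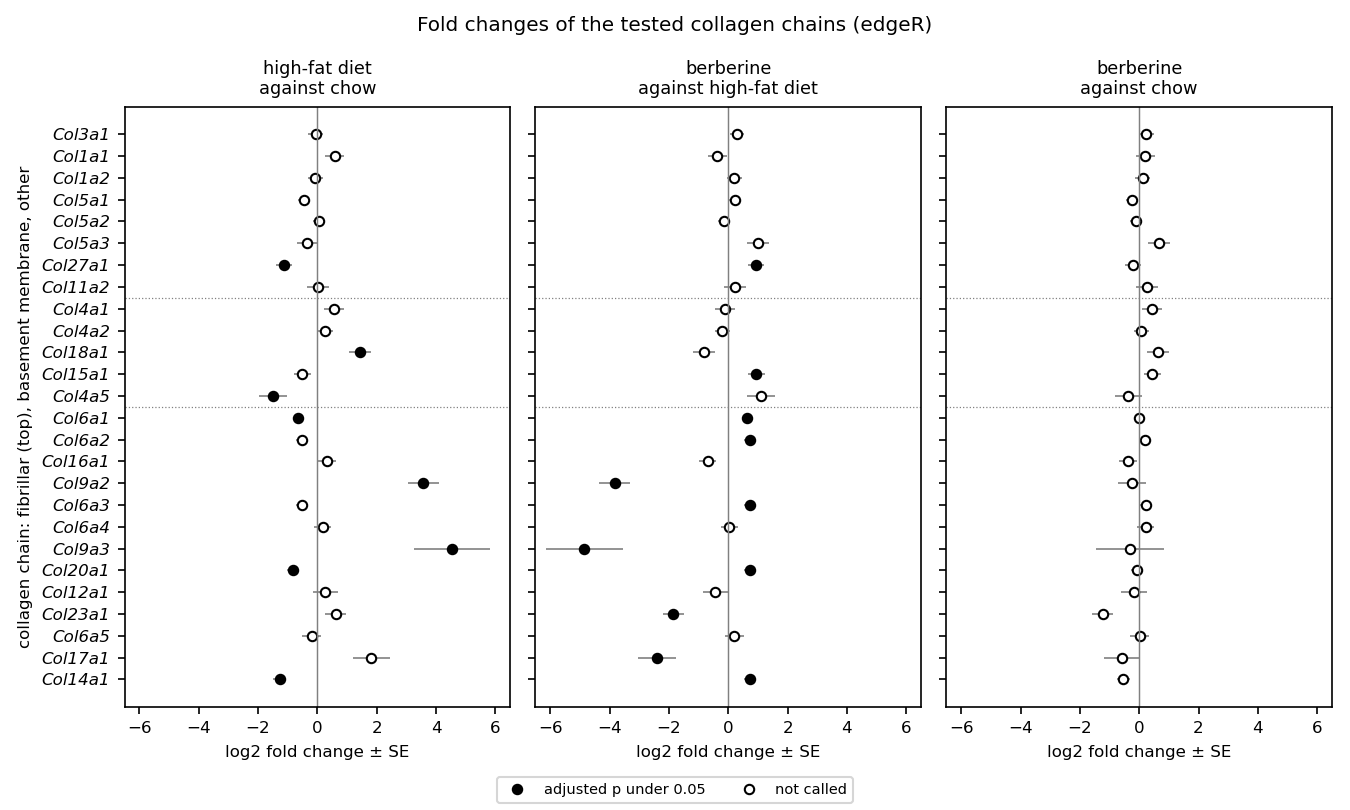
Log2 fold change with its SE (edgeR) of the 26 tested chains, with high-fat diet against chow, berberine against high-fat diet and berberine against chow in the 3 panels; filled points have an adjusted p under 0.05. There are 8 filled points in the left panel, 11 in the middle and 0 in the right, and the points farthest from 0 are those of Col9a2 and Col9a3.

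Type IX collagen gave the largest fitted folds among the tested chains, both with high-fat diet against chow and with berberine against high-fat diet. The filter favoured the folds of Col9a3, which passed it only through the high-fat diet libraries. The type IX chains, Col9a1, Col9a2 and Col9a3, assemble into a short collagen known best from cartilage, where it coats type II fibrils. The sequences upstream of the RefSeq starts (build GRCm38.p6) are shown because Col9a1 and Col9a2 were both high in the same libraries. Col9a1 has a pair of starts, and for Col9a2 the 30 bases around a match to the TCF/LEF letters CTTTGAT, in capitals, are given. That match lies inside an annotated exon of Col9a2.
Col9a1 start 1, chr1:24177360-24177609, plus strand: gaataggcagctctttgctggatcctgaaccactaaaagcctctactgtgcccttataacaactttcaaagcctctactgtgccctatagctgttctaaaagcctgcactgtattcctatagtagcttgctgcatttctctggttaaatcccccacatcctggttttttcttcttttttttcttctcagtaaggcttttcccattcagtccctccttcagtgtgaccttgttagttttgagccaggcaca
Col9a1 start 2, chr1:24194953-24195186, plus strand: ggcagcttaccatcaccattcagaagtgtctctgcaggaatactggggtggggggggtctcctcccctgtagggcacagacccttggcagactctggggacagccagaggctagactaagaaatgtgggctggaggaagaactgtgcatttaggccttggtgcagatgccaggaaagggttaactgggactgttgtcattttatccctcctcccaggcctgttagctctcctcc
Col9a2, chr4:121039376-121039405, plus strand: ccaggaggaaggCTTTGATcttggaggcaa
CTTTGAT was searched on both strands of the 250 bases before each start and was found in 3.21% of 32851 RefSeq promoters and in 1 of 38 collagen promoters, that of Col9a2. A match of letters is a description and shows no binding.

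Col9a2 (ENSMUSG00000028626, chr4:121039385-121055322, GRCm38) had 1.05, 1.07 and 1.08 FPKM in berberine libraries, 26.8, 11.3 and 11 FPKM in high-fat diet libraries and 1.34, 0.498 and 1.96 FPKM in chow libraries. Every high-fat diet library lay above every library of the other groups. Col9a2 rose 11.9-fold with high-fat diet against chow (log2 fold change 3.58 ± 0.52, SE, adjusted p = 0.00167). It fell with berberine against high-fat diet by 3.82 ± 0.53 on the log2 scale (adjusted p = 0.00133). Both calls held in all 19 alternative settings.

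Col9a3 (chr2:180597790-180622189) had 0.306, 0.339 and 0.0408 FPKM in berberine libraries, 19.5, 1.13 and 1.07 FPKM in high-fat diet libraries and 0.412, 0.178 and 0.252 FPKM in chow libraries. High-fat diet replicate 1 stood far above the rest, and the other high-fat diet libraries still lay above both other groups. Col9a3 was tested only through these libraries, with a mean of 0.255 FPKM over the other 6, so the filter favoured both contrasts. The log2 fold change was 4.54 ± 1.27 with high-fat diet against chow (adjusted p = 0.0258) and -4.85 ± 1.29 with berberine against high-fat diet (adjusted p = 0.0222). Without high-fat diet replicate 1 these values became 1.85 (adjusted p = 0.0961) and -2.15 (adjusted p = 0.064). The first call was also lost without any single chow library (adjusted p 0.0622 to 0.0775) and the second without any single berberine library (adjusted p 0.0601 to 0.0647).

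Col9a1 (chr1:24177610-24252684) lay under the filter, with 0.0192, 0 and 0 FPKM in berberine libraries, 1.09, 0.108 and 0.148 FPKM in high-fat diet libraries and 0 in all 3 chow libraries. Taking as the floor 12 estimated counts summed over the chow group, it was at least 36.9-fold higher with high-fat diet, and at least 10.8-fold higher without high-fat diet replicate 1. Col2a1, the main fibrillar chain of cartilage, had 0.0102, 0 and 0 FPKM in berberine libraries, 0.264, 0.0745 and 0.133 FPKM in high-fat diet libraries and 0 in all chow libraries, at least 23.8-fold higher with high-fat diet than chow over all libraries. In a fit without the filter on low values, both rose with high-fat diet against chow (adjusted p = 0.0176 for Col9a1 and 0.0139 for Col2a1) and fell with berberine against high-fat diet (adjusted p = 0.0448 for Col9a1 and 0.0443 for Col2a1). Type IX chains together made 0.446 to 0.559% of collagen FPKM in berberine libraries, 4.39 to 13.1% in high-fat diet libraries and 0.309 to 1.09% in chow libraries.

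**Figure D3:**
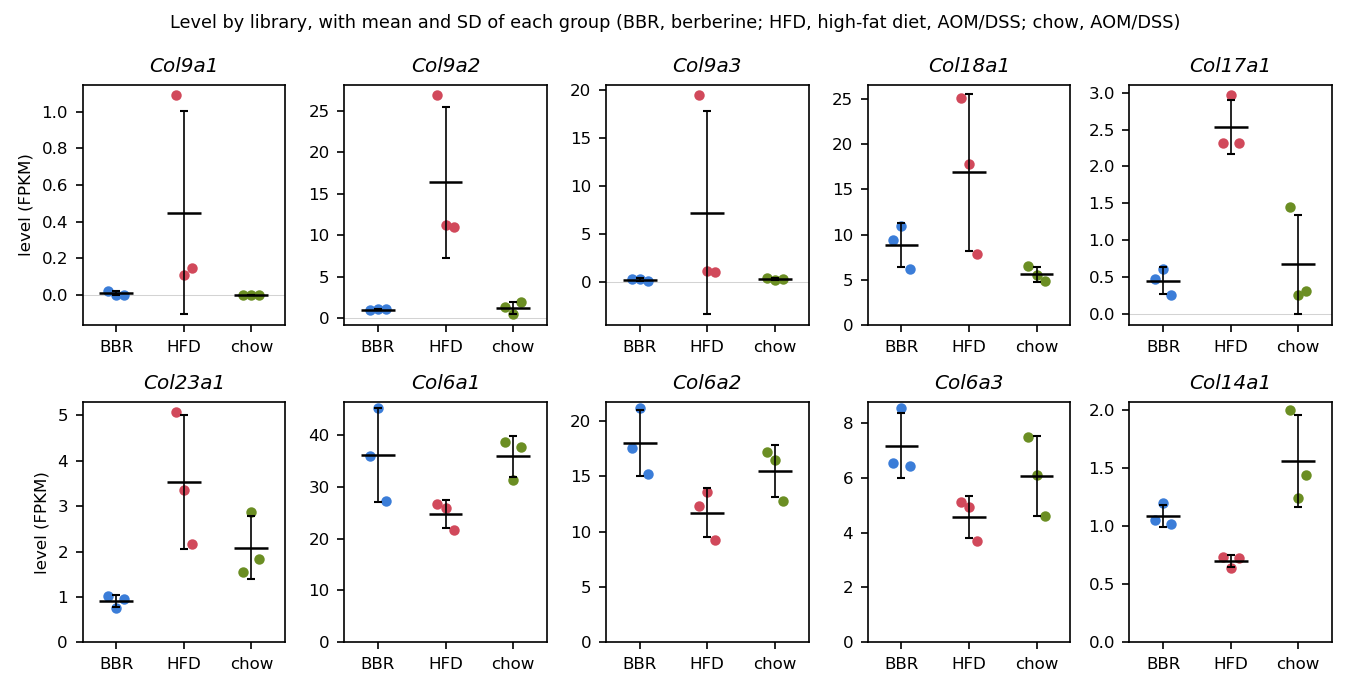
Level in FPKM of 10 collagen chains in each berberine (BBR), high-fat diet (HFD) and chow library, with the mean (bar) and SD (whiskers) of 3 libraries; the whiskers of Col9a1 and Col9a3 in the high-fat diet group and of Col17a1 in the chow group reach below 0, where 1 library is far above the others. Col9a2 and Col17a1 are highest in the 3 high-fat diet libraries, and Col6a1 and Col14a1 are lowest there.

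Among the fibrillar chains, Col27a1 fell with high-fat diet and no chain of types I, III or V changed in any of the 3 comparisons. Col3a1 had 44.6, 59.4 and 37.2 FPKM in berberine libraries, 46.3, 45.7 and 31.0 FPKM in high-fat diet libraries and 51.9, 35.4 and 30.1 FPKM in chow libraries, and the groups overlapped throughout. Its log2 fold change was -0.06 ± 0.25 with high-fat diet against chow (adjusted p = 0.888), a value whose sign turned with scaling by library totals (0.073), and 0.30 ± 0.25 with berberine against high-fat diet (adjusted p = 0.385). Col1a1 and Col1a2 make type I collagen, the main fibril former. Col1a1 had 21.8, 28.9 and 18.4 FPKM in berberine libraries, 46.9, 29.9 and 19.3 FPKM in high-fat diet libraries and 25.7, 18.6 and 14.3 FPKM in chow libraries. The log2 fold change of Col1a1 was 0.59 ± 0.33 with high-fat diet against chow (adjusted p = 0.206), and the highest library was high-fat diet replicate 1. Col1a2 averaged 16.7 ± 4.83 FPKM in berberine, 15.6 ± 3.44 FPKM in high-fat diet and 15.1 ± 3.92 FPKM in chow libraries (SD, n = 3 each).

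Type V chains nucleate fibrils and set their diameter. Col5a1 averaged 7.07 ± 1.72 FPKM in berberine, 6.48 ± 1.21 FPKM in high-fat diet and 8.19 ± 1.81 FPKM in chow libraries, and Col5a2 averaged 5.03 ± 0.968, 5.97 ± 1.33 and 5.31 ± 0.883 FPKM in the same groups (SD, n = 3 each). Col5a3 had 7.69, 7.01 and 3.36 FPKM in berberine libraries, 4.94, 2.43 and 2.30 FPKM in high-fat diet libraries and 3.82, 2.85 and 4.57 FPKM in chow libraries. Its high values were in berberine replicates 1 and 2, the libraries with the high adipocyte marker sums, whose part in the result was not tested. The log2 fold change of Col5a3 with berberine against high-fat diet was 0.99 ± 0.37 (adjusted p = 0.0723), and it passed the threshold with DESeq2 (adjusted p = 0.0283), without berberine replicate 3 (adjusted p = 0.0361) and without high-fat diet replicate 1 (adjusted p = 0.0216).

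Col27a1, a minor fibrillar chain known from cartilage, had 2.24, 1.83 and 1.49 FPKM in berberine libraries, 1.39, 0.663 and 1.06 FPKM in high-fat diet libraries and 1.91, 2.08 and 2.26 FPKM in chow libraries. The high-fat diet libraries lay below all others. It fell by 1.12 ± 0.27 on the log2 scale with high-fat diet against chow (adjusted p = 0.0134), in all 19 alternative settings. It rose by 0.92 ± 0.26 with berberine against high-fat diet (adjusted p = 0.0297), a call lost without berberine replicate 1 or 2 (adjusted p = 0.0907 and 0.0723), in a fit of these 6 libraries alone (adjusted p = 0.0567) and when high-fat diet replicate 3 was left out (adjusted p = 0.0643). Col11a2, of type XI, averaged 1.12 ± 0.296 FPKM in berberine, 1.03 ± 0.202 FPKM in high-fat diet and 0.929 ± 0.487 FPKM in chow libraries.

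The balance between chains of a trimer or fibril was compared within each library, where library size cancels, with an exact permutation test over all arrangements of 9 libraries in 3 groups (smallest possible p 0.00357), adjusted over 5 ratios. The Col1a1 to Col1a2 ratio was 1.49, 1.3 and 1.39 in berberine libraries, 2.59, 1.75 and 1.65 in high-fat diet libraries and 1.32, 1.33 and 1.21 in chow libraries. Each high-fat diet library lay above each library of the other groups (exact permutation p = 0.0107, adjusted p = 0.0357). The Col3a1 to Col1a1 ratio was 2.05, 2.06 and 2.02 in berberine libraries, 0.986, 1.53 and 1.61 in high-fat diet libraries and 2.02, 1.9 and 2.11 in chow libraries, with the high-fat diet libraries below the rest (exact permutation p = 0.025, adjusted p = 0.0417). The Col5a1 to Col5a2 ratio was 1.24, 1.53 and 1.43 in berberine libraries, 1.09, 1.01 and 1.18 in high-fat diet libraries and 1.62, 1.42 and 1.56 in chow libraries (exact permutation p = 0.0143, adjusted p = 0.0357). The ratios Col4a1 to Col4a2 and Col6a1 to Col6a2 did not pass (exact permutation, adjusted p = 0.504 and 0.514). The test is over the 3 groups at once and does not say which group differs, and leaving out any single library ended each of the 3 calls (adjusted p between 0.0536 and 0.107).

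**Figure D4:**
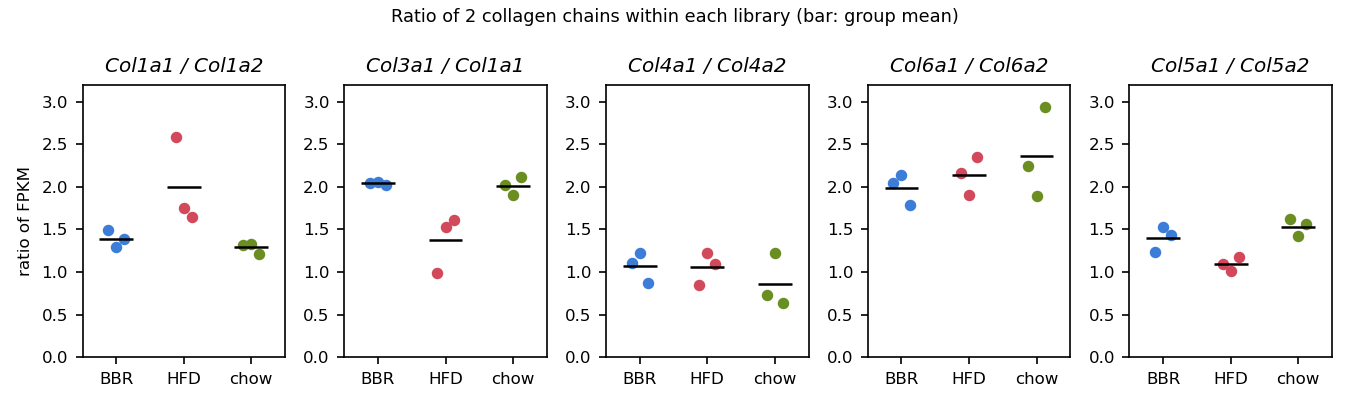
Ratio of the FPKM of 2 collagen chains within each berberine (BBR), high-fat diet (HFD) and chow library, with the group mean as a bar. The high-fat diet libraries are the 3 highest for Col1a1 to Col1a2 and the 3 lowest for Col3a1 to Col1a1 and Col5a1 to Col5a2, while the groups overlap for Col4a1 to Col4a2 and Col6a1 to Col6a2.

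Among the basement membrane chains, Col18a1 rose and Col4a5 fell with high-fat diet against chow, Col15a1 rose with berberine against high-fat diet, and the abundant Col4a1 and Col4a2 did not pass in any comparison. Col4a1 and Col4a2 are the chains of nearly all basement membranes. Col4a1 had 28.7, 34.3 and 16.2 FPKM in berberine libraries, 32.0, 39.6 and 21 FPKM in high-fat diet libraries and 19.8, 24.4 and 13 FPKM in chow libraries. Its log2 fold change with high-fat diet against chow was 0.55 ± 0.34 (adjusted p = 0.249). Col4a2 averaged 24.1 ± 5.00 FPKM in berberine, 29.6 ± 9.46 FPKM in high-fat diet and 22.5 ± 4.01 FPKM in chow libraries (SD, n = 3 each), with a log2 fold change of 0.27 ± 0.24 with high-fat diet against chow (adjusted p = 0.435).

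Col18a1 (chr10:77052178-77166548), whose C-terminal fragment is endostatin, had 9.41, 10.9 and 6.24 FPKM in berberine libraries, 25.1, 17.8 and 7.82 FPKM in high-fat diet libraries and 6.49, 5.56 and 4.86 FPKM in chow libraries. All high-fat diet libraries lay above all chow libraries, and their own spread was wide. Col18a1 rose by 1.45 ± 0.37 on the log2 scale with high-fat diet against chow (adjusted p = 0.0184). Adjusted p became 0.0562 when high-fat diet replicate 1 was left out and 0.0565 when chow replicate 3 was. With berberine against high-fat diet its log2 fold change was -0.83 ± 0.37 (adjusted p = 0.121), and it passed without high-fat diet replicate 3 (-1.17, adjusted p = 0.013).

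Col15a1, the relative of Col18a1 that links basement membranes to the matrix below, had 4.73, 7.24 and 3.81 FPKM in berberine libraries, 3.73, 2.68 and 2.33 FPKM in high-fat diet libraries and 4.99, 3.2 and 3.22 FPKM in chow libraries. It rose by 0.95 ± 0.28 with berberine against high-fat diet (adjusted p = 0.0329). The call was lost without berberine replicate 1 or 2 (adjusted p = 0.0528 and 0.116), without high-fat diet replicate 2 or 3 (adjusted p = 0.0917 and 0.0976), under library totals (adjusted p = 0.0598) and without the filter (adjusted p = 0.0525). Berberine replicates 1 and 2, the highest for Col15a1, were also the libraries with high adipocyte markers, and 5 of the 7 tested adipocyte markers rose in the same comparison, beside 15.8% of all tested genes higher. Adipocyte markers summed to 7.68 to 371 FPKM in berberine libraries, 5.50 to 15.5 FPKM in high-fat diet libraries and 33.1 to 60.2 FPKM in chow libraries, and no marker was at 0 in all libraries of a group. Their part in the result was not tested.

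Col4a5 on the X chromosome, a chain of specialised basement membranes including those of smooth muscle, had 1.38, 2.19 and 0.993 FPKM in berberine libraries, 0.335, 0.662 and 1.24 FPKM in high-fat diet libraries and 2.20, 1.89 and 1.70 FPKM in chow libraries. It fell by 1.48 ± 0.47 with high-fat diet against chow (adjusted p = 0.0424), and the call was lost in 11 of 19 alternative settings, among them the fits without high-fat diet replicate 1 or 2 (adjusted p = 0.0819 and 0.117), without any single chow library (adjusted p 0.0588 to 0.0906) and without berberine replicate 1 (adjusted p = 0.0612). The 10 smooth muscle markers summed to 1449 to 1719 FPKM in berberine libraries, 580 to 2590 FPKM in high-fat diet libraries and 2825 to 4149 FPKM in chow libraries. With high-fat diet against chow, 5 of them fell and none rose, beside 16.6% of all tested genes lower, and the highest of the high-fat diet libraries for them, replicate 3, was also the highest for Col4a5. Their part in the result was not tested.

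Type VI collagen forms beaded filaments around cells. Its chain Col6a1 fell with high-fat diet against chow, and Col6a1, Col6a2 and Col6a3 rose with berberine against high-fat diet. Col6a1 (chr10:76708792-76726168) had 35.8, 45.2 and 27.2 FPKM in berberine libraries, 26.6, 25.9 and 21.7 FPKM in high-fat diet libraries and 38.6, 31.2 and 37.6 FPKM in chow libraries, so that no high-fat diet library reached any library of the other groups. Col6a1 fell by 0.65 ± 0.17 with high-fat diet against chow (adjusted p = 0.019) and rose by 0.64 ± 0.17 with berberine against high-fat diet (adjusted p = 0.0218). Without high-fat diet replicate 3 adjusted p was 0.0617 and 0.0698 in these comparisons. The fall was also lost without chow replicate 1 (adjusted p = 0.0548), the rise without berberine replicate 2 (adjusted p = 0.0656) or high-fat diet replicate 2 (adjusted p = 0.0507), and under library totals adjusted p was 0.0616 for the fall and 0.062 for the rise.

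Col6a2, the next chain on the same chromosome, had 17.5, 21.1 and 15.2 FPKM in berberine libraries, 12.3, 13.5 and 9.26 FPKM in high-fat diet libraries and 17.2, 16.5 and 12.8 FPKM in chow libraries. It rose by 0.72 ± 0.18 with berberine against high-fat diet (adjusted p = 0.0185), and adjusted p was 0.069 in the absence of berberine replicate 2 and 0.0549 in that of high-fat diet replicate 3. With high-fat diet against chow it did not pass (log2 fold change -0.53 ± 0.18, adjusted p = 0.0538), though it did without chow replicate 3 (adjusted p = 0.0295) and with DESeq2 (adjusted p = 0.03). Col6a3, the large chain of the common type VI trimer, averaged 7.17 ± 1.17 FPKM in berberine, 4.58 ± 0.765 FPKM in high-fat diet and 6.06 ± 1.44 FPKM in chow libraries (SD, n = 3 each). It rose by 0.75 ± 0.20 with berberine against high-fat diet (adjusted p = 0.0243), and this was lost without berberine replicate 2 (adjusted p = 0.0877) or high-fat diet replicate 3 (adjusted p = 0.0751). With high-fat diet against chow its log2 fold change was -0.53 ± 0.20 (adjusted p = 0.0774), and it passed without chow replicate 3 (adjusted p = 0.024). The alternative chains Col6a4 and Col6a5 were not called, with 2.73 ± 0.578 and 1.38 ± 0.66 FPKM in berberine, 2.87 ± 0.902 and 1.28 ± 0.253 FPKM in high-fat diet and 2.29 ± 0.533 and 1.34 ± 0.0764 FPKM in chow libraries.

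Type VI chains made 24.8, 25.4 and 26.1% of collagen FPKM in berberine libraries, 13.4, 17.2 and 19% in high-fat diet libraries and 24.4, 26.5 and 28.7% in chow libraries, a share that also falls when other chains rise. The 12 fibroblast markers, chosen without collagens, summed to 229 to 294 FPKM in berberine libraries, 122 to 150 FPKM in high-fat diet libraries and 194 to 320 FPKM in chow libraries, and none was at 0 in any library. Of the 10 tested, 5 fell with high-fat diet against chow and 4 rose with berberine against high-fat diet, or 50% and 40%. None was called the other way. Of all tested genes, 16.6% were lower and 15.8% higher in these comparisons, and 31.8% and 30.7% changed in either direction. Gsn and Dpt made most of the gap in the sums. They averaged 154 and 46.4 FPKM in berberine, 69.5 and 9.92 FPKM in high-fat diet and 138 and 48.9 FPKM in chow libraries. Pdgfra, Pdpn and Fbln1 were not lower with high-fat diet, averaging 6.15, 6.43 and 8.27 FPKM, against 5.37, 4.24 and 8.12 FPKM with chow. The 11 endothelium and pericyte markers, none at 0 in any library, also had their lowest sums in the high-fat diet group, with 49.0 to 55.0 FPKM in berberine libraries, 29.7 to 42.6 FPKM in high-fat diet libraries and 55.9 to 88.6 FPKM in chow libraries. Of the 9 tested, 4 fell with high-fat diet against chow (44.4%), and 2 rose and 1 fell with berberine against high-fat diet (33.3%). The part of both marker lists in the type VI result, and in the like order of Col14a1, Col20a1 and Col27a1, was not tested.

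Of the fibril-associated chains beside type IX, Col14a1 and Col20a1 fell with high-fat diet against chow and rose with berberine against high-fat diet. Col14a1, which binds type I fibrils and regulates their growth, had 1.05, 1.2 and 1.02 FPKM in berberine libraries, 0.734, 0.639 and 0.725 FPKM in high-fat diet libraries and 2.00, 1.24 and 1.44 FPKM in chow libraries, so that the 3 groups did not overlap. It fell by 1.27 ± 0.21 with high-fat diet against chow (adjusted p = 0.00318), in all 19 alternative settings. It rose by 0.73 ± 0.21 with berberine against high-fat diet (adjusted p = 0.0305), a call lost without any single berberine or high-fat diet library (adjusted p 0.0579 to 0.097), under library totals (adjusted p = 0.0662) and without the filter (adjusted p = 0.0659). Its log2 fold change with berberine against chow was -0.54 ± 0.21 (adjusted p = 0.414).

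Col20a1, a fibril-associated chain, had 2.41, 2.54 and 2.97 FPKM in berberine libraries, 1.88, 1.47 and 1.79 FPKM in high-fat diet libraries and 2.40, 2.52 and 3.37 FPKM in chow libraries. It fell by 0.81 ± 0.20 with high-fat diet against chow (adjusted p = 0.0168), and not so in the fit that left out high-fat diet replicate 2 (adjusted p = 0.0558). It rose by 0.72 ± 0.20 with berberine against high-fat diet (adjusted p = 0.0275), lost without berberine replicate 2 or 3 (adjusted p = 0.062 and 0.0963), without high-fat diet replicate 2 or 3 (adjusted p = 0.0786 and 0.056) and without the filter (adjusted p = 0.0546). Col20a1 lies near Col9a3 on chromosome 2, with 388745 bases between their starts and the same orientation. Over the same libraries Col20a1 was lowest and Col9a3 highest in the high-fat diet group.

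Col12a1, which binds type I fibrils, averaged 1.85 ± 0.362 FPKM in berberine, 2.71 ± 1.52 FPKM in high-fat diet and 2.04 ± 0.638 FPKM in chow libraries and was not called. Col16a1, which bridges fibrils and other matrix, had 6.41, 7.07 and 6.10 FPKM in berberine libraries, 16.7, 7.14 and 10.2 FPKM in high-fat diet libraries and 9.08, 5.96 and 10.1 FPKM in chow libraries. Its log2 fold change with berberine against high-fat diet was -0.70 ± 0.29 (adjusted p = 0.102), and it passed without high-fat diet replicate 2 (-0.94, adjusted p = 0.0287).

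Of the transmembrane collagens, Col23a1 and Col17a1 fell with berberine against high-fat diet. Col23a1 had 1.01, 0.768 and 0.949 FPKM in berberine libraries, 5.08, 3.36 and 2.16 FPKM in high-fat diet libraries and 1.55, 2.87 and 1.83 FPKM in chow libraries. Every berberine library lay below every other library. Col23a1 fell by 1.85 ± 0.36 with berberine against high-fat diet (adjusted p = 0.00606), in all 19 alternative settings. With berberine against chow its log2 fold change was -1.24 ± 0.36 (edgeR adjusted p = 0.332), and DESeq2 alone called it (adjusted p = 0.0409). The chain was not called with high-fat diet against chow.

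Col17a1 (chr19:47646344-47692094), a component of the hemidesmosomes that fix basal epithelial cells to the basement membrane, had 0.479, 0.614 and 0.257 FPKM in berberine libraries, 2.32, 2.96 and 2.32 FPKM in high-fat diet libraries and 1.45, 0.255 and 0.309 FPKM in chow libraries. Its level in chow replicate 1 stood above the other chow libraries, and that library also had the highest sum of squamous epithelium markers. The chain reached the filter only through the high-fat diet libraries, with a mean of 0.561 FPKM over the other 6. Col17a1 fell by 2.40 ± 0.64 with berberine against high-fat diet (adjusted p = 0.0227), lost without berberine replicate 1 or 3 (adjusted p = 0.0632 and 0.0746) or high-fat diet replicate 2 (adjusted p = 0.056). Its log2 fold change was 1.81 ± 0.63 with high-fat diet against chow (adjusted p = 0.0559) and it became 3.01 (adjusted p = 0.00283) without chow replicate 1. It also passed with DESeq2 (adjusted p = 0.0102) and with limma on log2(FPKM + 1) (adjusted p = 0.00971). Squamous epithelium markers summed to 11.7 to 24.8 FPKM in berberine libraries, 52.4 to 107 FPKM in high-fat diet libraries and 8.10 to 161 FPKM in chow libraries. The members differed. Krt14 had 50.8, 41.3 and 14.3 FPKM in high-fat diet libraries and 38.2 FPKM in chow replicate 1. Krt5 had 0.0993, 0.246 and 0.608 FPKM in high-fat diet libraries and 38.0 FPKM in chow replicate 1. In berberine libraries Sprr1a alone made 14.6, 8.00 and 18.9 FPKM. Of the 8 tested squamous markers, 2 rose with high-fat diet against chow and 2 fell with berberine against high-fat diet. None of the 10 was at 0 in all libraries of a group. These 25% shares lay above the 15.2% of all tested genes higher and 14.9% lower in these comparisons. They lay below the 31.8% and 30.7% changed in either direction. The part of these markers in the result was not tested.

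The 18 chains under the filter were low in all groups. Col28a1, the highest of them with a mean of 0.698 FPKM, had 0.725, 0.483 and 0.703 FPKM in berberine libraries, 0.180, 0.166 and 0.718 FPKM in high-fat diet libraries and 1.38, 0.984 and 0.943 FPKM in chow libraries. In the fit without the filter, 11 of all 44 chains changed with high-fat diet against chow (5 higher, 6 lower), or 25% beside 13.1% of the 34440 genes with a count (6.3% higher, 6.8% lower), many of which hold few counts. With berberine against high-fat diet 12 changed (6 higher, 6 lower), or 27.3% beside 12.2% of genes (6.51% higher, 5.71% lower), and with berberine against chow 0 changed beside 0.0145% of genes. Col8a2, a network-forming chain of vessel walls and the cornea, had 0.280, 0.121 and 0.215 FPKM in berberine libraries, 0.0440, 0.0388 and 0.0777 FPKM in high-fat diet libraries and 0.599, 0.581 and 0.383 FPKM in chow libraries. In that fit Col8a2 fell by 3.32 ± 0.51 with high-fat diet against chow (adjusted p = 0.0024) and rose by 1.99 ± 0.49 with berberine against high-fat diet (adjusted p = 0.0247). Col11a1, a fibrillar chain of type XI, averaged 0.0619 ± 0.00648 FPKM in berberine, 0.0131 ± 0.0113 FPKM in high-fat diet and 0.0996 ± 0.0106 FPKM in chow libraries (adjusted p = 0.0148 with high-fat diet against chow and 0.0438 with berberine against high-fat diet). These rest on few counts, with 4 to 96 estimated counts per library for Col11a1 and 11 to 187 for Col8a2.

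Partners that make, organise, bind or cut collagen were counted from gene lists. Of 27 tested genes of collagen modification, folding, secretion and cross-linking, 3 rose and 8 fell with high-fat diet against chow (40.7%, beside 31.8% of all tested genes, median log2 fold change -0.07), and 6 rose and 3 fell with berberine against high-fat diet (33.3%, near the 30.7% of all tested genes, median 0.06). Loxl3, a cross-linking lysyl oxidase, fell by 1.52 ± 0.27 with high-fat diet against chow (adjusted p = 0.00422). P4ha1, a prolyl hydroxylase subunit that stabilises the triple helix, had 13.2, 18.4 and 15.6 FPKM in berberine libraries, 7.42, 5.38 and 5.52 FPKM in high-fat diet libraries and 7.17, 6.44 and 7.08 FPKM in chow libraries, and rose by 1.47 ± 0.17 with berberine against high-fat diet (adjusted p = 0.000623). Creb3l1, a transcription factor needed for collagen secretion in bone, rose by 1.94 ± 0.37 in that comparison (adjusted p = 0.00576), and Tmem38b, an endoplasmic reticulum ion channel, fell by 0.61 ± 0.13 with high-fat diet against chow (adjusted p = 0.00951).

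Of 14 tested proteins that organise fibrils, 1 rose and 6 fell with high-fat diet against chow (median log2 fold change -0.97), and 6 rose and 1 fell with berberine against high-fat diet (median 0.82). That is 50% of the list in each comparison, beside 31.8% and 30.7% of all tested genes. Dpt, a small protein that speeds fibril formation and is also among the fibroblast markers, had 47.7, 50.1 and 41.4 FPKM in berberine libraries, 9.08, 9.72 and 11 FPKM in high-fat diet libraries and 57.4, 40.4 and 48.9 FPKM in chow libraries. It fell by 2.42 ± 0.15 with high-fat diet against chow (adjusted p = 5.55e-05) and rose by 2.32 ± 0.15 with berberine against high-fat diet (adjusted p = 5.39e-05). Thbs2, a matricellular thrombospondin, rose by 1.43 ± 0.19 with high-fat diet against chow (adjusted p = 0.00109) and fell by 2.23 ± 0.20 with berberine against high-fat diet (adjusted p = 0.000215).

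Of 15 tested non-collagen proteins of basement membranes, 6 rose and 1 fell with high-fat diet against chow (median log2 fold change 0.46), and 1 rose and 6 fell with berberine against high-fat diet (median -0.11). That is 46.7% of the list in each comparison, beside 31.8% and 30.7% of all tested genes. The laminin chain Lama5 had 4.41, 4.76 and 3.74 FPKM in berberine libraries, 27.9, 22 and 18.9 FPKM in high-fat diet libraries and 6.84, 4.80 and 6.78 FPKM in chow libraries. It rose by 1.78 ± 0.17 with high-fat diet against chow (adjusted p = 0.000333) and fell by 2.31 ± 0.18 with berberine against high-fat diet (adjusted p = 0.000115). Smoc2, a calcium-binding matrix protein, rose by 3.21 ± 0.23 with high-fat diet against chow (adjusted p = 0.000119) and fell by 3.45 ± 0.24 with berberine against high-fat diet (adjusted p = 7.04e-05). The perlecan gene Hspg2 was the member that fell with high-fat diet against chow and rose with berberine against high-fat diet.

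Of 6 tested collagen-degrading enzymes, 4 rose and 0 fell with high-fat diet against chow (median log2 fold change 1.10), and 0 rose and 3 fell with berberine against high-fat diet (median -0.99). The list is small, and 15.2% of all tested genes were higher in the first comparison and 14.9% lower in the second. Mmp14, a membrane-bound collagenase, had 8.07, 9.50 and 6.42 FPKM in berberine libraries, 34.3, 30.9 and 18.2 FPKM in high-fat diet libraries and 8.78, 7.52 and 7.21 FPKM in chow libraries, and rose by 1.70 ± 0.23 with high-fat diet against chow (adjusted p = 0.00118). It fell by 1.69 ± 0.23 with berberine against high-fat diet (adjusted p = 0.00124). The gelatinase Mmp9 rose by 3.30 ± 0.58 with high-fat diet against chow (adjusted p = 0.00369) and fell by 2.58 ± 0.56 with berberine against high-fat diet (adjusted p = 0.00928). Of 7 tested collagen receptors, 1 rose and 2 fell with high-fat diet against chow (median log2 fold change -0.04), and likewise with berberine against high-fat diet (median -0.27), or 42.9% of the list in each comparison, beside 31.8% and 30.7% of all tested genes. Ddr1, the collagen receptor kinase of epithelial cells, rose by 0.81 ± 0.10 with high-fat diet against chow (adjusted p = 0.000801) and fell by 0.81 ± 0.10 with berberine against high-fat diet (adjusted p = 0.000786). Itga1, an integrin collagen receptor subunit, fell by 0.75 ± 0.13 with high-fat diet against chow (adjusted p = 0.0036), and Adgrg1, an adhesion receptor that binds type III collagen, fell by 1.16 ± 0.22 with berberine against high-fat diet (adjusted p = 0.00582). With berberine against chow, 0 genes of any of these lists changed by edgeR, and those with the smallest p were P4ha1 and Tmem38b, Itga1 and Adgrg1, Thbs2 and Lum, Lama3 and Lama5, and Mmp15 and Mmp2.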

How the data were processed

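RNA was poly(A)-selected and sequenced with stranded paired-end libraries carrying molecular identifiers, per the labels' protocols. The tools listed, per the submitters' processing notes, are StringTie 1.3.4d, HISAT2 2.0.4, cutadapt 1.9, edgeR, DESeq2 and UMI-tools, on GRCm38, with no role stated. Per the file headers, each gene has 2 deposited values per library, FPKM and an estimated count. Estimated counts as deposited are whole, and of those from 1 to 8 a share of 41.9% are multiples of 4, so that 1 fragment may stand for several counts. The deposited FPKM of a gene with a count of 0 is a fixed small value, read here as 0. Totals were 51961764 to 69007117 estimated counts, and 20961 of 55401 genes were at 0 throughout. Low counts limit the low chains.

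The estimated counts were tested with edgeR 4.0.16 (quasi-likelihood, TMM scaling, all 9 libraries in 1 fit, R 4.3.3), with Benjamini-Hochberg adjustment over the 14506 genes averaging 1 FPKM or more. SE is the log2 fold change divided by the square root of F. Alternatives were scaling by library totals or DESeq2 size factors, DESeq2 1.42.0, other filters, limma 3.58.1 on log2(FPKM + 1) and log2(FPKM + 0.1), counts divided by 4, the 6 libraries of a pair, a replicate block and leaving out each library. The main edgeR fit was tested on simulated data, and the permutation test on made-up values with a known answer.

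Groups do not overlap where no TMM-scaled level of 1 group reaches the other. Every tested chain is named, and of each partner list the 2 tested genes with the smallest p in each comparison are named, plus genes that describe a list. Partner lists, marker lists and the members were chosen with earlier results of these data known. Promoter sequences are from RefSeq (GRCm38.p6), with 35 of 44 chains matched.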

Additional observations from a re-analysis of the deposited data

How the results depend on the processing

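Leaving out each library in turn gave 5 to 8 changed collagen chains with high-fat diet against chow, 3 to 11 with berberine against high-fat diet and 0 with berberine against chow, and 3573 to 4325, 2960 to 4740 and 1 to 7 changed genes in all. With berberine against high-fat diet, limma gave 6 changed chains on log2(FPKM + 1) and 7 on log2(FPKM + 0.1), in place of 11. With berberine against chow, DESeq2 gave 1 changed chain and 384 changed genes in place of 0 and 7, and 2 genes changed with DESeq2 size factors, with a minimum of 0.1 FPKM, with limma on log2(FPKM + 0.1), with counts divided by 4, in the pair alone and under the replicate block. The cause was not tested.

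The labels state no pairing of the libraries by replicate number. Correlations of same-numbered deviations ran from -0.0987 to 0.16 and those of other pairs from -0.219 to 0.16. With 3 libraries per group, these values cannot decide whether libraries were paired. Under the replicate block 11 chains changed in each of the first 2 comparisons, and 4344 and 4286 genes. Col17a1 (adjusted p = 0.042), Col6a2 (0.0109), Col6a3 (0.0482) and Col4a1 (0.00879) passed with high-fat diet against chow, and Col4a5 did not (0.0623).

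For the ratios, leaving out a library left fewer arrangements, and adjusted p was 0.0536 to 0.101 for Col1a1 to Col1a2, 0.0625 to 0.107 for Col3a1 to Col1a1 and 0.0536 to 0.101 for Col5a1 to Col5a2. Adding 0.1 FPKM to each chain changed none. Col4a5 to Col4a6 was not run because Col4a6 lay under 1 FPKM.

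Log2 fold changes of uncalled chains changed sign in some settings. With high-fat diet against chow, under library totals, limma on log2(FPKM + 1) and limma on log2(FPKM + 0.1), Col3a1 was 0.073, 0.080 and 0.082 and Col1a2 was 0.056, 0.051 and 0.055. Leaving out each library gave -0.21 to 0.17 for Col3a1 and -0.22 to 0.12 for Col1a2 in that comparison. It gave -0.64 to 0.017 for Col1a1, -0.057 to 0.33 for Col1a2, -0.36 to 0.11 for Col4a1 and -0.43 to 0.022 for Col4a2 with berberine against high-fat diet, and -0.13 to 0.31 for Col1a2 and -0.042 to 0.21 for Col4a2 with berberine against chow.

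Limma also ended calls at 1 or both pseudocounts for Col6a1 and Col9a3 with high-fat diet against chow, and for Col6a1, Col6a2, Col6a3, Col9a3, Col14a1 and Col15a1 with berberine against high-fat diet (adjusted p 0.0509 to 0.114). Of 78 chain and comparison pairs, 36 were called in no setting, and 16 of these changed sign in at least 1 of 19 settings. DESeq2 gave no adjusted p for Col9a3. For the 20 named partner gene calls, alternatives added after seeing the data kept direction and call in 380 of 380 values. The counts over 24 chains and the folds without high-fat diet replicate 1 were likewise added after seeing the data. Low counts limit the chains called at few counts, such as Col9a1, Col2a1 and Col11a1.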

Other observations

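Several collagen genes lie next to each other: 18 of the 44 chains have another collagen gene within 500 kb, in 12 pairs, of which 3 are head to head. These are Col4a1 with Col4a2 on chromosome 8, with 21 bases between the starts, Col4a3 with Col4a4 on chromosome 1, with 72 bases, and Col4a5 with Col4a6 on the X chromosome, with 1309 bases. Col4a1 and Col4a2 both averaged 25.4 FPKM over all libraries, while Col4a5 was at 0.993 to 2.19 FPKM in berberine libraries, 0.335 to 1.24 FPKM in high-fat diet libraries and 1.70 to 2.20 FPKM in chow libraries, and Col4a6 averaged 0.0293 FPKM over all libraries.

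In the 250 bases before 38 collagen starts, on either strand, the GC box letters GGGCGG were found in 22 of the 38, beside 32.7% of 32851 RefSeq promoters, and TATAAA in 5 of the 38, beside 12.4%. TGANTCA, the AP-1 letters, were found in 1, that of Col6a1, beside 6.75%, and ACAATGG, the SOX letters, in 0, beside 3.02%. No match says only that these letters are not in this window.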
